A study of Mus musculus with 39 samples.

Results

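Arc, Npas4, Bdnf, Homer1 and Nptx2 are genes that neurons switch on when they are active, and their RNA was measured in the brain of mice given soman or saline. The 5 genes were taken by symbol from the 47561 genes of the deposited table, and each symbol matched 1 gene. Soman, an organophosphate nerve agent, inactivates acetylcholinesterase and so lets acetylcholine build up at synapses. It was injected under the skin at 3 doses, 1/10, 1/5 and 1/2 LD50, where the LD50 is lethal to 50% of animals. Brains were taken on day 1, 3, 7 or 14, which made 12 soman groups of 3 libraries, and a single group of 3 libraries came from mice given saline. The series' design text calls the 3 libraries of a group biological replicates, and p-values measure only the spread between these libraries. The labels give no strain, sex or age, no number of animals per library, and no hour at which brains were taken. They do not say whether soman was given singly or repeatedly, or on which day the saline brains were taken. Without saline brains of each day, the effect of soman and that of the collection day cannot be told apart in any comparison with saline or between days.

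Strong synaptic input lets calcium into a neuron, and the calcium signal turns on a set of genes within minutes to hours through transcription factors already present, CREB and SRF among them. Some of these genes encode further transcription factors, and others encode proteins that act at the synapse or leave the cell. Npas4 is a transcription factor that depends on calcium and helps set the number of inhibitory synapses a neuron receives. Bdnf is the secreted brain-derived neurotrophic factor, the ligand of the receptor Ntrk2, and is needed for lasting changes in synaptic strength. Arc acts in dendrites, where it helps take up AMPA-type glutamate receptors from the synapse. Homer1 ties metabotropic glutamate receptors to the scaffold under the synapse, and its short, activity-induced form loosens that tie. Nptx2 is a secreted pentraxin that gathers AMPA receptors on excitatory synapses of inhibitory neurons.

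CREB binds the cyclic AMP response element, whose core letters are CGTCA. On the other strand the core reads TGACG. The RefSeq promoter table of the mouse build GRCm38.p6 held entries for 3 of the 5 genes, Npas4, Bdnf and Homer1, and 1 window of each is shown for the position and number of these cores. Arc and Nptx2 had no entry. The windows below are the 250 bases before a start site, 5′ to 3′ on the strand of the gene, with each core on either strand in capitals. Npas4 (chr19:4989972-4990221, minus strand) has cores beginning at -179 and -169 from the start. Of 7 Bdnf windows, 1 holds a core, at -35 (chr2:109692186-109692435, plus strand). Of 2 Homer1 windows, 1 holds cores at -56, -40 and -14 (chr13:93303507-93303756, plus strand).
Npas4: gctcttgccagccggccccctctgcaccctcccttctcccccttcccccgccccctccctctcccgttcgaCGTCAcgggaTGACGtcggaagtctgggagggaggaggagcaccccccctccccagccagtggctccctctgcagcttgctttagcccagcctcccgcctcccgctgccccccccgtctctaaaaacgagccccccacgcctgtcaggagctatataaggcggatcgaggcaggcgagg
Bdnf: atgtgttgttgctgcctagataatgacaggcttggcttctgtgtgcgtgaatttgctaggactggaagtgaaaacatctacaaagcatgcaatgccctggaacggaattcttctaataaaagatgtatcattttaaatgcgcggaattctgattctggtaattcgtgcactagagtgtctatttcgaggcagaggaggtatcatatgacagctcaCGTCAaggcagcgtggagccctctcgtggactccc
Homer1: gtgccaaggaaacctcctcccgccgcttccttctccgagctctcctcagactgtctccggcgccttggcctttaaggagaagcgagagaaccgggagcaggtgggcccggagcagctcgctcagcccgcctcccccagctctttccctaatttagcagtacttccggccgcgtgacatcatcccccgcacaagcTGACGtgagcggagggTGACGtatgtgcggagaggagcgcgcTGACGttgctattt
Over all 32851 windows of the same length in that table, 17.8% held at least 1 core, 3.9% at least 2 and 0.688% at least 3. The full palindrome TGACGTCA, which holds the core on both strands, was in 1.55% of all windows, and the CArG box bound by SRF was in 1.47%. Neither was in any window of these 3 genes. A match is a string of letters and was not tested for binding.

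The deposited values were FPKM, a unit meant to account for transcript length and library size. The lengths used are not given, so levels of different genes can be compared only roughly. Library sums ran from 296322 to 342231 FPKM, and read depth is unknown. All 5 genes passed the filter for testing, 1 FPKM or more in at least 3 libraries, as did 14701 genes in all. Changes are differences of log2(FPKM + 1) from 1 limma model of all 13 groups. That scale understates changes of genes near 1 FPKM, Npas4 above all. An adjusted p (Benjamini-Hochberg over the 14701 genes) under 0.05 counts as a pass. Markers of excitatory forebrain neurons, inhibitory neurons and glia were present in all groups, in keeping with a brain label. Cerebellar markers summed to 14.8, 16.1 and 18.8 FPKM in 3 libraries (1/2 LD50 at day 7 replicate 1, 1/5 LD50 at day 3 replicate 2 and 1/10 LD50 at day 3 replicate 2), against 130.7 or more in the other 36. At 1/10 LD50 on day 7, replicates 2 and 3 had 22.6% and 27.0% of their FPKM in genes of the mitochondrial genome, where the median library had 10.1%. A further 7 libraries had values midway between those of their 2 fellow replicates more often than libraries of other groups did. They are the replicates numbered 3 of saline, of all day-1 doses and of the 1/10 and 1/5 LD50 doses on day 14, with replicate 2 of day 7 at 1/10 LD50. Results that change without any of these libraries are given both ways.

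By mean level, Arc ranked 1799th of the 14701 tested genes, Homer1 3096th, Nptx2 5725th, Bdnf 10312th and Npas4 11023th. The spread over groups differed among the 5. The ratio of the highest to the lowest group mean was 5.51 for Npas4 and 5.47 for Arc, but 2.45 for Homer1, 1.65 for Bdnf and 1.61 for Nptx2. The lowest group was 1/5 LD50 at day 3 for Npas4 and Bdnf, 1/2 LD50 at day 3 for Homer1, and 1/10 LD50 at day 7 for Arc and Nptx2. The highest was at day 14 for 4 of the 5 genes, and 1/5 LD50 at day 7 for Nptx2.

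**Figure D1:**
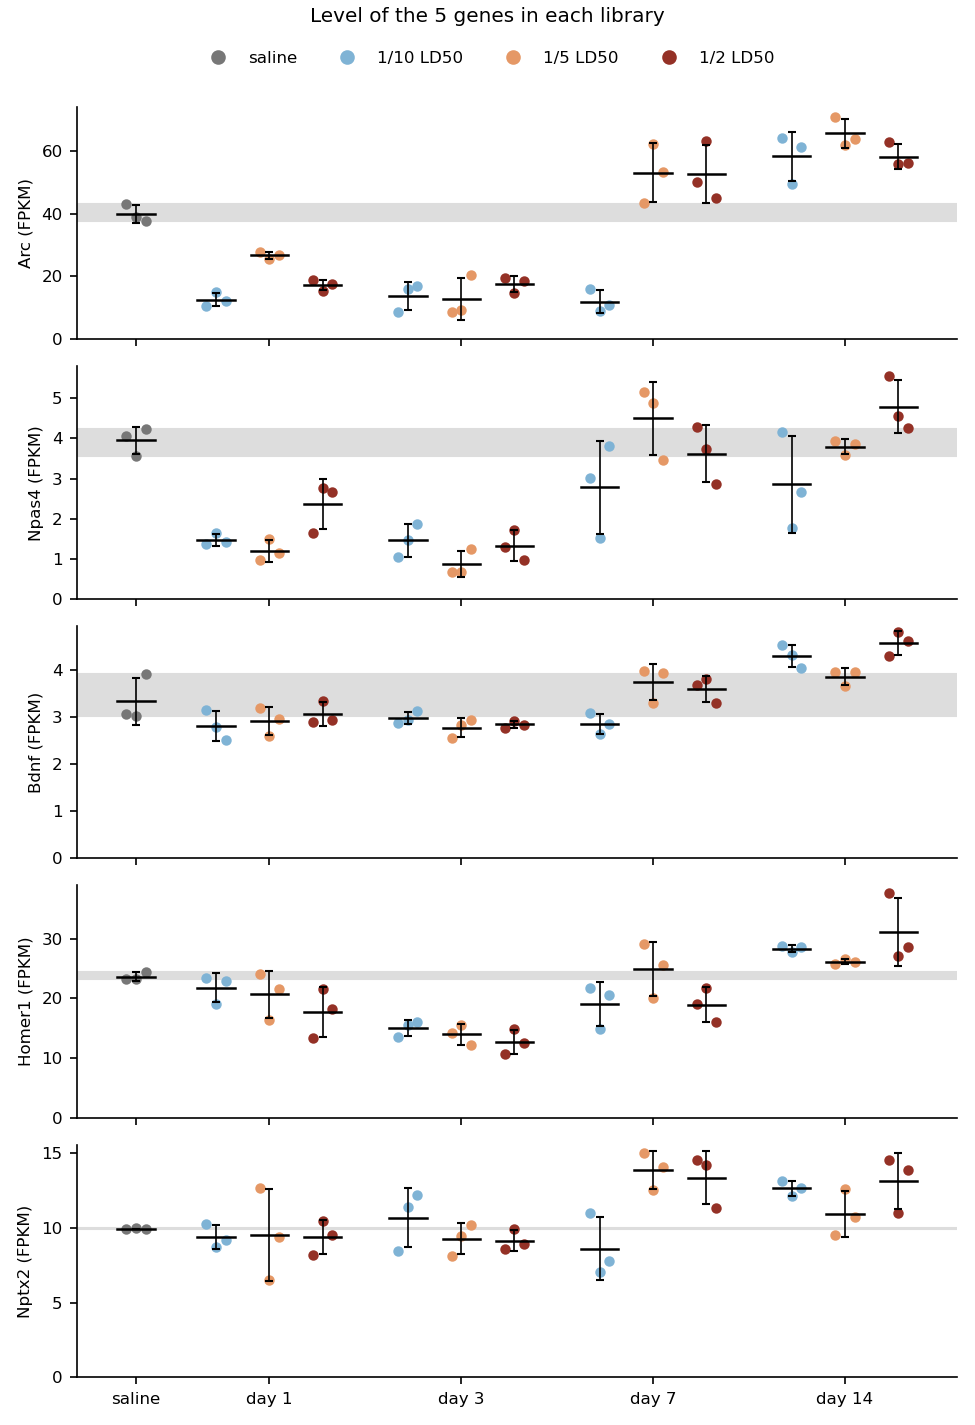
FPKM of each gene in all 39 libraries (1 panel per gene, 1 point per library, coloured by dose), for saline and then days 1, 3, 7 and 14, with the group mean and SD as bars and the saline range as a grey band. Arc points of days 1 and 3 lie under the saline band at every dose, those of day 14 lie above it, and at day 7 the 1/10 LD50 points (8.92 to 16.0) lie apart from those of the higher doses (43.4 to 62.9).

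Npas4, the transcription factor, was lower than saline at days 1 and 3, and later it passed in no comparison with saline. At day 1 it stood at 1.36, 1.63 and 1.41 FPKM in the 1/10 LD50 libraries, 0.963, 1.48 and 1.14 FPKM in the 1/5 LD50 libraries and 1.64, 2.78 and 2.67 FPKM in the 1/2 LD50 libraries, against 4.05, 3.57 and 4.23 FPKM in saline. All 9 day-1 libraries lay under all saline libraries. It fell at 1/10 LD50, by 1.00 on the log2 scale (SE 0.20, limma adjusted p = 0.0118), and at 1/5 LD50, by 1.18 (SE 0.20, adjusted p = 0.0168), while the difference at 1/2 LD50 was -0.57 (SE 0.20, adjusted p = 0.401). In these comparisons 0.279%, 0.0136% and 0.0884% of all tested genes were called lower, in order of dose. Both day-1 calls rest on single libraries. The 1/10 LD50 call did not hold when saline replicate 1 or 3 or its own replicate 1 or 3 was left out (adjusted p = 0.052 to 0.0862), nor the 1/5 LD50 call under the same 4 choices (0.0535 to 0.214), and neither held without the 7 libraries between others (0.322 and 0.67). In bulk tissue, fewer cells that express a gene and less of its RNA per cell cannot be told apart, here and below.

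The difference from saline was firmer at day 3. Npas4 stood at 1.04, 1.47 and 1.87 FPKM at 1/10 LD50, at 0.681, 0.674 and 1.26 FPKM at 1/5 LD50 and at 1.28, 1.73 and 0.975 FPKM at 1/2 LD50, all under the saline libraries. It fell at all 3 doses, with log2 changes of -1.02, -1.42 and -1.10 (SE 0.20 each, limma adjusted p = 0.00229, 8.84e-05 and 0.00136), and these calls were kept under every alternative tried. Of all tested genes, 5.36%, 6.12% and 4.65% were called lower at day 3. At day 7 the level was 3.01, 1.53 and 3.81 FPKM at 1/10 LD50, 5.16, 4.88 and 3.46 FPKM at 1/5 LD50 and 4.28, 3.73 and 2.86 FPKM at 1/2 LD50. At day 14 it was 4.16, 1.77 and 2.65 FPKM, 3.94, 3.59 and 3.85 FPKM, and 5.54, 4.57 and 4.27 FPKM at the same doses. These later libraries overlapped saline in 5 of the 6 groups, and in none did Npas4 pass (1 at an unadjusted p under 0.05, log2 differences from -0.44 to 0.22, SE 0.20, limma adjusted p = 0.124 to 0.97). In the sixth, 1/2 LD50 at day 14, all 3 libraries lay above saline. At 1/10 LD50 of days 7 and 14 the means were 2.78 and 2.86 FPKM, against 3.95 FPKM in saline. In each of these groups 2 of 3 libraries lay under all saline libraries.

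Between days the same soman libraries showed this pattern without the use of saline. Over the 9 libraries of a day, Npas4 ran from 0.963 to 2.78 FPKM at day 1 (median 1.48), 0.674 to 1.87 at day 3 (median 1.26), 1.53 to 5.16 at day 7 (median 3.73) and 1.77 to 5.54 at day 14 (median 3.94). It rose at day 7 against day 1 by 0.78 and against day 3 by 1.04 on the log2 scale, and at day 14 by 0.84 and 1.10 (SE 0.12 each, limma adjusted p = 1.18e-05, 1.13e-06, 8.13e-06 and 4.24e-08). Day 14 less day 7 was 0.06 (adjusted p = 0.742) and day 3 less day 1 was -0.26 (adjusted p = 0.104). Over all 36 soman libraries Npas4 fell by 0.58 against saline (SE 0.15, adjusted p = 0.0343), where 2.16% of all tested genes were called lower. That call was lost without any 1 of the 3 saline libraries (adjusted p up to 0.241).

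Bdnf, the secreted ligand, differed from saline by far less, and its levels rose late. At day 14 it stood at 4.53, 4.33 and 4.06 FPKM at 1/10 LD50, 3.97, 3.67 and 3.96 FPKM at 1/5 LD50 and 4.31, 4.81 and 4.62 FPKM at 1/2 LD50, against 3.08, 3.02 and 3.92 FPKM in saline. Of these 9 libraries, 8 lay above all saline libraries, with replicate 2 of 1/5 LD50 the exception. Bdnf rose at 1/2 LD50 by 0.37 (SE 0.08, limma adjusted p = 0.0288), the single pass of its 12 comparisons with saline, where 0.0816% of all tested genes were called higher. The differences at 1/10 and 1/5 LD50 were 0.30 (adjusted p = 0.0951) and 0.17 (adjusted p = 0.458). That call needed saline replicates 1 and 2 (adjusted p = 0.185 and 0.216 without them) and each of its own libraries (adjusted p = 0.0773 to 0.124). Saline replicate 3, which stands above the other 2 for this gene, is one of the 7 libraries between others, and without those 7 the adjusted p was 0.0999.

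Earlier, Bdnf lay between 2.51 and 3.36 FPKM at day 1 (median 2.95, n = 9) and between 2.55 and 3.14 FPKM at day 3 (median 2.88), with 6 and 8 of the 9 libraries under all saline libraries. None of these 6 groups passed (limma, 3 at an unadjusted p under 0.05, log2 differences from -0.20 to -0.09, adjusted p = 0.12 to 0.928). At day 7 the range was 2.64 to 3.98 FPKM (median 3.30). Between days Bdnf rose at day 14 by 0.42 against day 1, 0.44 against day 3 and 0.26 against day 7 (SE 0.05 each, limma adjusted p = 2.07e-07, 3.51e-08 and 9.55e-05). It also rose at day 7 against day 1 (0.16, adjusted p = 0.0121) and against day 3 (0.18, adjusted p = 0.0214). The first of these was lost without the 7 libraries between others (adjusted p = 0.0571) and the other without the 3 libraries low in cerebellar markers (adjusted p = 0.0536). Day 3 less day 1 was -0.02 (adjusted p = 0.763). The Bdnf value sums transcripts from several start sites, 7 of which the RefSeq table lists, so a change in one of them is seen only diluted.

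Arc, the dendritic effector, differed most of the 5 between day 14 and day 3 on the log2 scale. At day 1 it stood at 10.7, 14.9 and 12.2 FPKM at 1/10 LD50, 27.8, 25.7 and 26.8 FPKM at 1/5 LD50 and 18.8, 15.4 and 17.7 FPKM at 1/2 LD50, against 43.1, 38.97 and 37.6 FPKM in saline. At day 3 it stood at 8.75, 15.9 and 17.0 FPKM, 8.79, 9.31 and 20.4 FPKM, and 19.4, 14.6 and 18.7 FPKM at the same doses. All 18 libraries of these days lay under every saline library. Arc fell at day 1 at 1/10 LD50 by 1.60 (limma adjusted p = 0.000114) and at 1/2 LD50 by 1.16 (adjusted p = 0.0212), with a difference of -0.56 at 1/5 LD50 (adjusted p = 0.724). At day 3 it fell at all 3 doses, with log2 changes of -1.51, -1.66 and -1.15 (adjusted p = 0.000187, 4.86e-05 and 0.00209, SE 0.22 throughout). The day-3 calls were kept under every alternative, whereas that of 1/2 LD50 at day 1 was lost without any 1 of the 6 libraries compared (adjusted p = 0.087 to 0.126) and without the 7 between others (adjusted p = 0.603).

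At day 7 the doses separated. Arc stood at 16.0, 8.92 and 10.99 FPKM at 1/10 LD50, but at 43.4, 62.1 and 53.3 FPKM at 1/5 LD50 and 49.9, 62.9 and 44.9 FPKM at 1/2 LD50. The 1/10 LD50 libraries lay under all saline libraries and the 6 others above them. Against saline Arc fell at 1/10 LD50 by 1.69 (SE 0.22, adjusted p = 0.00013), where 15.3% of all tested genes were called lower, and the differences at 1/5 and 1/2 LD50 were 0.39 (adjusted p = 0.248) and 0.38 (adjusted p = 0.31). Replicates 2 and 3 of 1/10 LD50 are those with a high mitochondrial share, and without them a single library was left and the call was lost (-1.26, adjusted p = 0.136). At day 14 Arc stood at 63.9, 49.3 and 61.2 FPKM at 1/10 LD50, 70.7, 61.8 and 63.8 FPKM at 1/5 LD50 and 62.6, 55.6 and 56.0 FPKM at 1/2 LD50. All 9 lay above all saline libraries, yet the differences of 0.53, 0.70 and 0.53 did not pass (SE 0.22, limma adjusted p = 0.354, 0.209 and 0.443). With no other groups in the model, those at 1/5 and 1/2 LD50 did (adjusted p = 0.00788 and 0.0362), and the fall at 1/10 LD50 of day 7 did not (adjusted p = 0.0533).

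Between days Arc rose at day 14 by 1.69 against day 1, 2.02 against day 3 and 0.89 against day 7 (SE 0.13 each, limma adjusted p = 3.17e-10, 4.42e-12 and 7.7e-06). It rose at day 7 by 0.80 against day 1 (adjusted p = 3.44e-05) and 1.13 against day 3 (adjusted p = 1.62e-06). The median over the 9 libraries of a day was 17.7 FPKM at day 1, 15.9 at day 3, 44.9 at day 7 and 61.8 at day 14. Every day-14 library (49.3 to 70.7 FPKM) lay above every library of day 1 (10.7 to 27.8) and day 3 (8.75 to 20.4). Day 3 less day 1 was -0.33 (adjusted p = 0.0612), and this passed without replicate 3 of 1/5 LD50 at day 3, the highest Arc library of that day (adjusted p = 0.00351), and without replicate 3 of 1/10 LD50 (adjusted p = 0.0352). Over all 36 soman libraries Arc less saline was -0.57 (SE 0.16, adjusted p = 0.0571). It passed without any 1 of 4 libraries, of which 3 are from day 3 (1/10 LD50 replicates 1 and 3, 1/5 LD50 replicate 3) and the fourth is day 7, 1/10 LD50 replicate 1 (adjusted p = 0.013 to 0.0463).

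**Figure D2:**
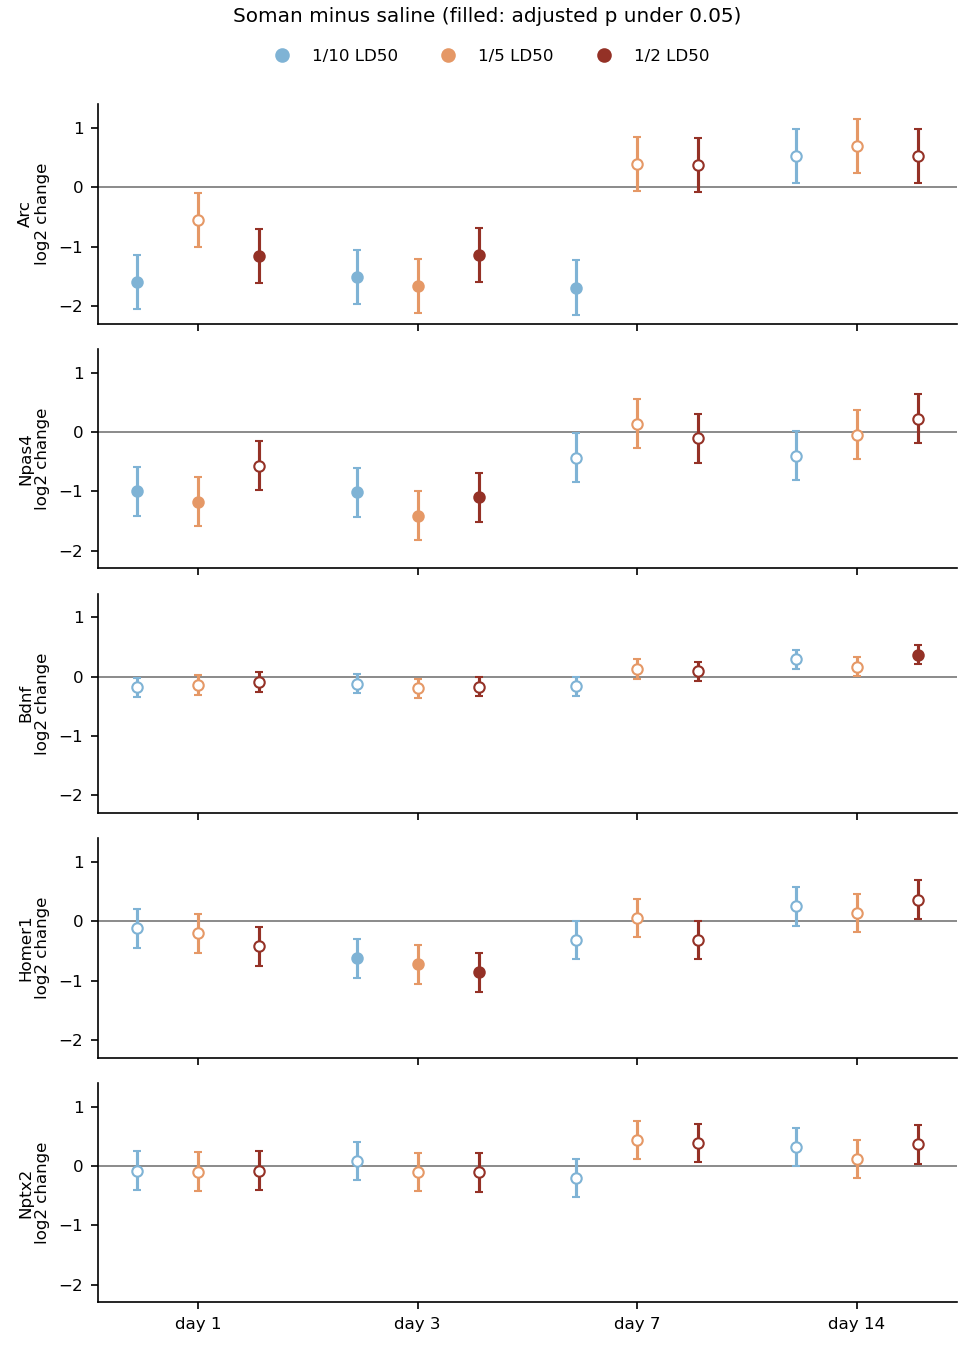
Log2 change of each gene in each soman group against saline, soman less saline, by day (x axis) and dose (colour), with 95% confidence intervals and filled points where the limma adjusted p is under 0.05. Arc and Npas4 lie at -1.66 to -1.02 at all 3 doses of day 3, Nptx2 has no filled point, and Bdnf has 1, at 1/2 LD50 on day 14 (0.37).

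Homer1, the scaffold protein, was lowest at day 3. It stood then at 13.6, 15.5 and 16.0 FPKM at 1/10 LD50, 14.2, 15.5 and 12.2 FPKM at 1/5 LD50 and 10.8, 14.8 and 12.5 FPKM at 1/2 LD50, against 23.2, 23.3 and 24.4 FPKM in saline. All 9 libraries lay under all saline libraries. Homer1 fell at all 3 doses, with log2 changes of -0.62, -0.73 and -0.86 (SE 0.16 each, limma adjusted p = 0.0155, 0.00449 and 0.00152). At 1/10 LD50 the call did not survive leaving out saline replicate 3 or its own replicate 1 or 2 (adjusted p = 0.0512 to 0.0661), and, without the 7 libraries between others, both it and that at 1/5 LD50 were lost (adjusted p = 0.115 and 0.0569). In the other 9 groups Homer1 passed in none against saline (limma, 2 at an unadjusted p under 0.05, log2 differences from -0.42 to 0.37), though all 9 libraries of day 14 (25.8 to 37.6 FPKM) lay above all saline libraries.

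Homer1 was also lower at day 3 than at day 1, with a log2 change of -0.49 (SE 0.09, limma adjusted p = 0.000335), where 10.6% of all tested genes were called lower. It ran from 13.4 to 24.0 FPKM at day 1 (median 21.6, n = 9) and from 14.9 to 29.1 FPKM at day 7 (median 20.5). At day 14 it rose by 0.99 against day 3, 0.50 against day 1 and 0.44 against day 7 (SE 0.09 each, adjusted p = 3.66e-09, 0.000366 and 0.000563), and at day 7 by 0.55 against day 3 (adjusted p = 0.000528). The value sums the short, activity-induced form and the long forms of Homer1, which cannot be separated here.

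Nptx2, the secreted pentraxin, did not pass in any of its 12 comparisons with saline (limma, 3 with an unadjusted p under 0.05). Saline libraries were close together at 9.89, 9.95 and 9.91 FPKM, and the widest difference was at 1/5 LD50 on day 7, where the libraries stood at 15.0, 12.5 and 14.0 FPKM (0.44, SE 0.16, adjusted p = 0.0562). All 3 lay above saline, as did the 1/2 LD50 libraries of that day at 14.5, 14.2 and 11.3 FPKM. It ran from 6.53 to 12.7 FPKM at day 1 (median 9.39, n = 9), 8.14 to 12.2 at day 3 (median 9.43), 7.03 to 15.0 at day 7 (median 12.5) and 9.51 to 14.5 at day 14 (median 12.6). Nptx2 rose at day 14 by 0.35 against day 1 and 0.31 against day 3, and at day 7 by 0.29 against day 1 (SE 0.09 each, adjusted p = 0.00914, 0.0105 and 0.0191). Without replicate 2 of 1/5 LD50 at day 1 the last of these was lost (adjusted p = 0.0583), and without the 7 libraries between others both rises against day 1 were (adjusted p = 0.0927 for day 14 and 0.0623 for day 7).

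Counted over the 5 genes, 3 fell at each dose of day 3 against saline (Arc, Npas4 and Homer1), beside 5.36%, 6.12% and 4.65% of all tested genes. At 1/10, 1/5 and 1/2 LD50 of day 1, 2, 1 and 1 fell, beside 0.279%, 0.0136% and 0.0884% of all genes. At day 7, 1 of the 5 fell at 1/10 LD50, which is near the 15.3% of all genes called lower. Limma called none at 1/5 or 1/2 LD50 of that day (1 each at an unadjusted p under 0.05), where 6.49% and 1.71% of all tested genes were called higher and 8.87% and 6.68% lower. At day 14 limma called none at 1/10 or 1/5 LD50 (2 each unadjusted), against 0.0476% and 0.0612% of all genes called higher and 0.388% and 0.102% lower. At 1/2 LD50 it called Bdnf alone, where 0.0816% of all genes were called higher. All 12 comparisons share the same 3 saline libraries. The 5 genes were chosen with earlier results of these data known, so counts of them are a description and not separate support. All 5 genes rose at day 14 against day 1, and all 5 against day 3, where 7.27% and 14.6% of all tested genes were called higher and 7.67% and 17.9% lower. At day 14 against day 7 the count was 3 (17.1% of all genes), at day 7 against day 1 it was 4 (10.2%) and at day 7 against day 3 it was 4 (2.1%).

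Libraries that did not overlap saline were also counted. At day 1 every soman library lay under every saline library for 2, 2 and 3 of the 5 genes at 1/10, 1/5 and 1/2 LD50, against 13.4%, 9.98% and 9.6% of all tested genes. At day 3 every soman library lay under every saline library for 3, 4 and 4 of the 5 in order of dose, against 15.8%, 14.9% and 14% of all tested genes. At day 7 the genes under saline numbered 2, 0 and 1 (18.2%, 18.8% and 18.7% of all genes) and those above it 0, 2 and 2 (7.71%, 21.7% and 13.5%). At day 14 every soman library lay above every saline library for 4, 2 and 5 of the 5, against 6.35%, 14.2% and 7.24% of all tested genes, although the limma test called 0, 0 and 1 of the 5 higher there (2, 2 and 4 at an unadjusted p under 0.05). An F-test for any difference among days placed Arc 4th of all tested genes (limma adjusted p = 5.69e-12), Npas4 72nd (6.55e-09), Bdnf 105th (2.91e-08), Homer1 107th (2.91e-08) and Nptx2 3308th (0.00348). In that test 49.5% of all tested genes passed.

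**Figure D3:**
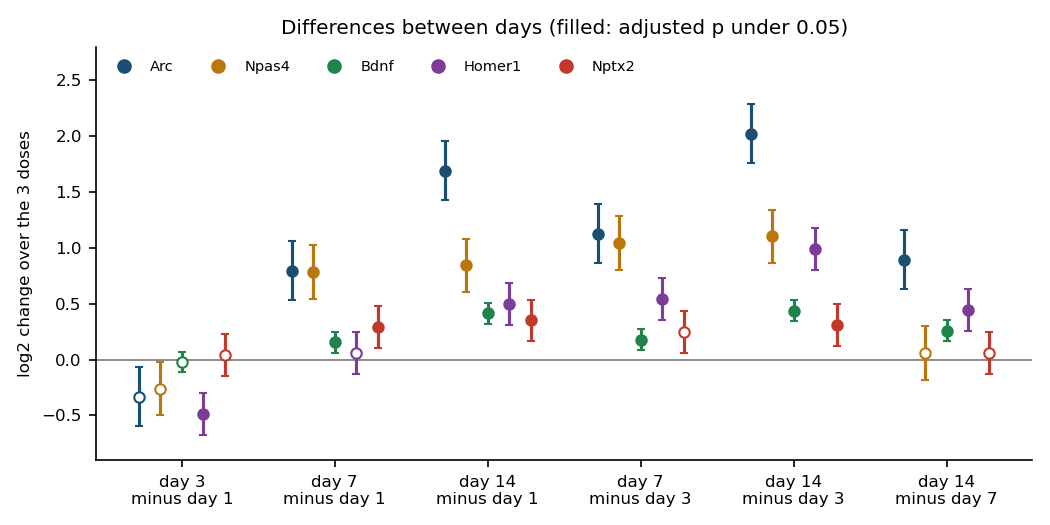
Log2 change between each of the 6 pairs of days, later less earlier day and averaged over the 3 doses (9 libraries per day), with 95% confidence intervals and filled points where the limma adjusted p is under 0.05. Against day 3, day 14 is higher for all 5 genes, from 0.31 for Nptx2 to 2.02 for Arc, and day 3 less day 1 is filled for Homer1 alone (-0.49).

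Markers of other cells were read in the same comparisons, and their part in the results was not tested. At day 3 none of 7 markers of excitatory forebrain neurons, the cells in which these genes are best known, passed against saline at any dose (limma, 0 also at an unadjusted p under 0.05), and their summed level was 823 to 1281 FPKM, against 895 to 937 FPKM in saline. Of 6 markers of the meninges, 5 were lower at each dose of day 3 (sums of 32.3 to 45.7 FPKM, against 49.1 to 57.5 FPKM in saline). In these comparisons 5.36%, 6.12% and 4.65% of all tested genes were called lower, in order of dose. Of 7 striatal markers, 2 were higher than in saline at 1/5 LD50 of day 3, beside 2.48% of all tested genes. At day 14 against day 3 the excitatory list had 1 member higher and none lower, inhibitory neurons had 2 of 6 higher, and the meningeal list none (0 also unadjusted). Of 7 striatal markers 2 were lower there. Of all tested genes 14.6% were called higher and 17.9% lower, so the excitatory count is near the share called higher. At day 14 against day 1, 5 of 6 meningeal markers were lower (median log2 change -0.38), and of the 7 excitatory markers limma called none (0 also at an unadjusted p under 0.05). Of all tested genes 7.67% were called lower there. All 3 markers of blood were lower at day 14 than at day 1 and than at day 3 (median log2 changes -1.29 and -1.01), with sums of 108 to 358 FPKM at day 14, against 528 to 606 FPKM in saline. Of 5 markers each, 3 of oligodendrocytes were lower at day 14 than at day 3, and 3 of microglia than at day 1.

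The doses differed at day 7 in 4 of the 5 genes. For Arc the libraries of 1/5 and 1/2 LD50 (43.4 to 62.9 FPKM) lay apart from those of 1/10 LD50 (8.92 to 16.0 FPKM), and it was higher by 2.08 and 2.07 on the log2 scale (SE 0.22, limma adjusted p = 1.89e-06 and 4.15e-06). Nptx2 averaged 13.9 ± 1.24 FPKM at 1/5 LD50 and 13.3 ± 1.77 FPKM at 1/2 LD50, against 8.60 ± 2.09 FPKM at 1/10 LD50 (SD, n = 3 each), higher by 0.65 and 0.59 (SE 0.16, adjusted p = 0.00343 and 0.0123). Bdnf averaged 3.74 ± 0.384, 3.60 ± 0.268 and 2.86 ± 0.220 FPKM in the same order, higher by 0.30 and 0.25 (SE 0.08, adjusted p = 0.00674 and 0.0268). In all 3 genes the 6 libraries of the higher doses lay above the 3 of 1/10 LD50. Npas4 passed at 1/5 LD50 (0.58, SE 0.20, adjusted p = 0.0335) and not at 1/2 LD50 (0.33, adjusted p = 0.265), with overlapping libraries. Homer1 passed at neither dose (0.37 at 1/5 LD50, adjusted p = 0.0806). So 4 of the 5 genes were higher at 1/5 than at 1/10 LD50 and 3 at 1/2 LD50, among 21.8% and 13.6% of all tested genes.

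Both day-7 comparisons use the 2 libraries of high mitochondrial share. Without these Arc kept both calls (1.65, adjusted p = 0.0212, and 1.64, adjusted p = 0.0343), while Nptx2 (0.31, adjusted p = 0.63, and 0.25, adjusted p = 0.777), Bdnf (adjusted p = 0.511 and 0.713) and Npas4 (0.44, adjusted p = 0.553) lost theirs, with a single 1/10 LD50 library left. When the model held only the groups compared, Arc at 1/5 and 1/2 LD50 did not pass either (adjusted p = 0.133 and 0.0692). Some markers of other cells were called in these comparisons too, and their part was not tested. Of 6 meningeal markers 3 were lower at 1/5 and 3 at 1/2 LD50 (sums of 23.6 to 29.5 and 26.2 to 29.4 FPKM, against 32.6 to 40.1 FPKM at 1/10 LD50). All 3 blood markers and 2 of 7 striatal ones were higher at 1/5 LD50, and 2 of 7 cerebellar and 2 of 5 astrocyte markers were lower at 1/2 LD50. Excitatory forebrain markers had 1 of 7 higher at each dose. Of 6 markers of inhibitory neurons, 1 was lower at 1/5 LD50 and 2 were higher at 1/2 LD50. Of the 14701 tested genes, 21.8% and 13.6% were called higher at 1/5 and 1/2 LD50, and 844 and 604 genes lower. The striatal and excitatory counts are near the shares called higher. Single libraries also decided calls. Npas4 at 1/5 LD50 did not pass without replicate 2 of 1/10 LD50 (adjusted p = 0.284) or replicate 1 or 2 of 1/5 LD50 (adjusted p = 0.119 and 0.1). At 1/2 LD50, leaving out replicate 2 or 3 of 1/10 LD50 or replicate 1 of 1/2 LD50 ended the call of Bdnf (adjusted p = 0.105 to 0.116) and of Nptx2 (adjusted p = 0.0724 to 0.0951), as did replicate 2 of 1/2 LD50 for Bdnf (adjusted p = 0.0926).

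**Figure D4:**
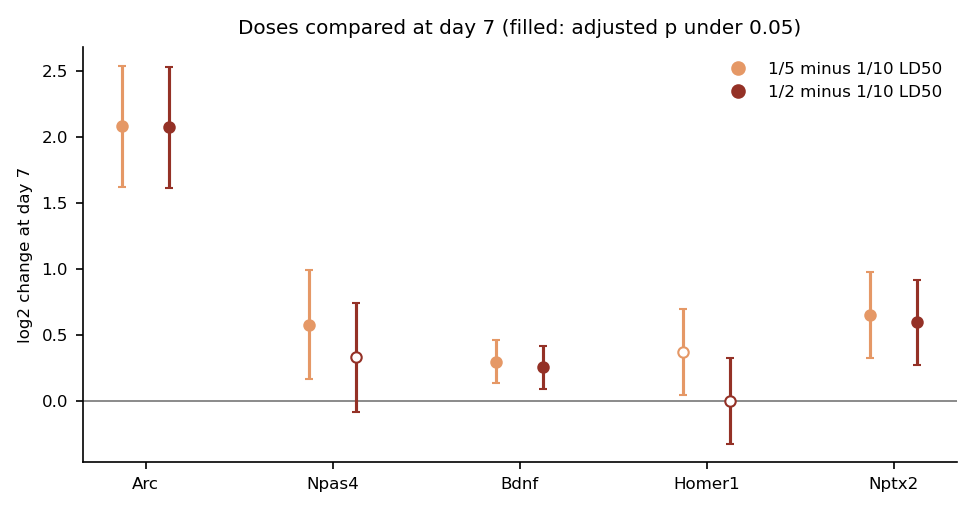
Log2 change at day 7 of 1/5 LD50 and of 1/2 LD50 against 1/10 LD50, higher less lower dose, for each gene, with 95% confidence intervals and filled points where the limma adjusted p is under 0.05. Arc lies at 2.08 and 2.07, the other 4 genes between 0.00060 and 0.65, and Homer1 has no filled point.

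At day 7 none of the 5 genes passed between 1/2 and 1/5 LD50 (limma, 1 at an unadjusted p under 0.05), where 0.116% of all tested genes did. For Arc the difference was -0.01 (95% interval -0.47 to 0.45, limma adjusted p = 0.994), and for Nptx2 -0.06 (-0.38 to 0.27, adjusted p = 0.935). At days 1, 3 and 14 limma passed none of 45 dose comparisons of the 5 genes (7 at an unadjusted p under 0.05). Of all tested genes, 0%, 0.238% and 0.0476% passed at day 1 (1/5 against 1/10, 1/2 against 1/10 and 1/2 against 1/5 LD50), 0% in each at day 3, and 0.0408%, 0.0068% and 0.0408% at day 14. Over the 4 days Arc was higher at 1/5 than at 1/10 LD50 by 0.78 (SE 0.11, adjusted p = 0.000638) and at 1/2 than at 1/10 LD50 by 0.72 (adjusted p = 0.00329), where 5.56% and 0.034% of all tested genes were called higher. The second was lost without the 2 libraries of high mitochondrial share (0.61, adjusted p = 0.0657) and without the 7 between others (0.68, adjusted p = 0.2). A test of whether the dose effect differs between days ranked Arc 3rd of all tested genes (adjusted p = 0.000985), with 1.59% of genes passing. Arc did not pass this test without the 7 libraries between others or without the 2 of high mitochondrial share. The other 4 did not pass (adjusted p = 0.103 to 0.292), and Nptx2 did without replicate 1 of 1/10 LD50 at day 7 (adjusted p = 0.0093).

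The order of Arc and Homer1, both proteins of excitatory synapses, differed between groups. Arc stood 1.54 to 1.86 times as high as Homer1 in the saline libraries. At 1/10 LD50 that ratio was 0.456 to 0.784 at day 1 and 0.536 to 0.736 at day 7, while at 1/2 LD50 on day 7 it was 2.61 to 2.89. Arc was under Homer1 in 12 of the 36 soman libraries, none of them of day 14, and in none of the 3 saline libraries. Which gene stands higher in a library depends on the transcript lengths used, which are not given. Along the order of the 13 group means, neighbours rarely differed beyond the spread of their libraries. For Arc the ranges did not overlap at 3 steps, 1/2 LD50 at day 7 over saline, saline over 1/5 LD50 at day 1, and that group over 1/2 LD50 at day 3. For Npas4, Bdnf and Homer1 there was 1 such step each, and for Nptx2 none.

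Over the 13 group means of log2(FPKM + 1), the 5 genes went together to different degrees, as a description of points that share libraries and days. Pearson's r was highest for Arc with Bdnf (0.894) and lowest for Homer1 with Nptx2 (0.588). Within groups, over the deviations of the 39 libraries from their group means, the order turned, with Homer1 and Nptx2 highest of the 10 pairs (0.725) and Arc with Bdnf at 0.126. Among 11212 genes with a mean of 2 FPKM or more, those closest to Arc were Nr4a1 (0.987), a nuclear receptor of early transcription, Dusp1 (0.981), a phosphatase of MAP kinases, Trib1 (0.973), Klf10 (0.969) and Dusp6 (0.968). Closest to Npas4 were Fos (0.903), Fmnl1 (0.879), Srpk1 (0.878), Phlda1 (0.873) and Cxxc5 (0.870). Closest to Bdnf were Fbxo33 (0.961), Fosl2 (0.942), Trib1 (0.926), E2f6 (0.926) and Jak2 (0.925). Closest to Homer1 were Etv5 (0.975), Osbpl3 (0.964), Spred1 (0.954), Prdm15 (0.928) and Fam53b (0.921). Closest to Nptx2 were Vgf (0.939), a secreted neuronal peptide precursor, Egr2 (0.926), Egln1 (0.891), Arl4d (0.867) and Btg2 (0.866). Within groups, r of the 5 genes named for Arc ran from 0.338 (Klf10) to 0.809 (Nr4a1). For Npas4 it ran from -0.329 (Srpk1) to 0.615 (Fmnl1) and for Bdnf from -0.212 (E2f6) to 0.39 (Fbxo33). For Homer1 it ran from -0.312 (Fam53b) to 0.787 (Osbpl3) and for Nptx2 from -0.171 (Egr2) to 0.673 (Vgf). Nr4a1, closest to Arc, averaged 10.4 ± 3.30, 29.7 ± 4.23 and 33.7 ± 3.87 FPKM at 1/10, 1/5 and 1/2 LD50 of day 7, against 21.5 ± 0.770 FPKM in saline (SD, n = 3 each).

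Other genes that neuronal activity induces also rose late. Their lists were chosen with earlier results of these data known, so the counts are a description and not separate support. Of 15 tested activity-regulated transcription factors, 14 rose at day 14 against day 1 and 14 against day 3, with none lower (median log2 changes 0.68 and 0.92, against 0.01 and -0.03 over all tested genes). Of 27 tested effectors, 21 and 18 rose, with none lower (medians 0.34 and 0.31). Of all tested genes, 7.27% were called higher against day 1 and 14.6% against day 3. Without the 7 libraries between others, 13 effectors were called against day 1. Fos, a subunit of the AP-1 factor, rose by 1.88 against day 3 (SE 0.14, limma adjusted p = 3.47e-11), Fosb by 1.06 (adjusted p = 7.63e-12), the nuclear receptor Nr4a3 by 1.01 (adjusted p = 2.89e-13) and Fosl2 by 0.92 (adjusted p = 3.47e-11). Among the effectors, Dusp1 rose by 0.98 (adjusted p = 1.29e-08), Trib1 by 0.81 (adjusted p = 1.17e-09), the kinase Sik1 by 0.60 (adjusted p = 1.05e-08) and Midn by 0.51 (adjusted p = 1.7e-09). Fos averaged 14.3 ± 1.85, 14.1 ± 1.44 and 14.6 ± 2.08 FPKM at day 14 and 3.26 ± 1.16, 2.67 ± 2.10 and 4.27 ± 0.235 FPKM at day 3, in order of dose, against 11.4 ± 1.14 FPKM in saline (SD, n = 3 each).

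Counts in these lists at day 3 against saline depended on single libraries, except that of factors at 1/2 LD50, which stayed at 3. There 7, 8 and 3 of the 15 factors and 5, 5 and 5 of the 27 effectors were lower at 1/10, 1/5 and 1/2 LD50, and 1 effector was higher at 1/5 LD50, where 2.48% of all tested genes were. The shares of all tested genes called lower were 5.36%, 6.12% and 4.65%. Factors at 1/10 LD50 numbered 2 to 4 when saline replicate 1 or 2, or replicate 1 or 2 of that dose, was left out, and at 1/5 LD50 they numbered 5 without its replicate 2. Effectors numbered 2 to 3 at 1/10 LD50 without saline replicate 2 or 3 or its own replicate 1, 2 at 1/5 LD50 without its replicate 1, and 2 to 3 at 1/2 LD50 without saline replicate 3 or its own replicate 1 or 2. Without the 7 libraries between others, 2, 6 and 3 factors and at most 2 effectors a dose were called. At day 7, 12 factors and 17 effectors were higher at 1/5 than at 1/10 LD50 (medians 0.48 and 0.42, against 0.09 over all genes) and 9 and 16 at 1/2 than at 1/10 LD50. Of all tested genes, 21.8% and 13.6% were called higher in these comparisons. Without the 2 libraries of high mitochondrial share, or in a model of only the groups compared, limma called none of either list in these 4 counts. Leaving out replicate 2 or 3 of 1/10 LD50 left 4 to 9 factors and 7 to 16 effectors.

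Partners and relatives of the 5 proteins were read in the same way. At day 14 against day 1, limma called none higher of 10 neurotrophin ligands and receptors, 12 Homer and Shank partners, 10 partners of Arc, 23 genes of calcium, CREB, SRF and MEF2 signalling and 10 genes of the bHLH-PAS family, to which Npas4 belongs. It called 1 higher of 9 pentraxins and AMPA receptor genes. Called lower there were 1 of the Homer and Shank partners, 1 of the partners of Arc and 2 of the bHLH-PAS genes. Of all tested genes 7.27% were called higher and 7.67% lower, so the counts of 1 gene are near those shares. At an unadjusted p under 0.05, in either direction, the 6 lists had 1, 2, 2, 8, 4 and 1 in that order. Against day 3 the counts higher were 3, 3, 1, 10, 2 and 4 in the same order, and lower 1, 1, 1, 1, 2 and 0, beside 14.6% of all tested genes higher and 17.9% lower. The counts for the partners of Arc and the bHLH-PAS genes are near those shares, and the single genes named next say nothing about their lists as a whole. Ntrk2, the Bdnf receptor, rose by 0.17 against day 3 (SE 0.04, limma adjusted p = 0.000547), and Sort1, which sorts Bdnf, by 0.25. Of the Homer partners, Itpr1, a calcium channel of the endoplasmic reticulum that is abundant in cerebellar Purkinje cells, rose by 0.77 (SE 0.12, adjusted p = 1.53e-05) and Shank2 by 0.23, while Dlg4 fell by 0.14. Nptx1, the sister pentraxin of Nptx2, rose by 0.40 (SE 0.06, adjusted p = 2.27e-05), the AMPA subunits Gria4 by 0.35 and Gria1 by 0.17, and their auxiliary subunit Cacng2 by 0.31. Dynamin 3 (Dnm3) rose by 0.30 and endophilin A3 (Sh3gl3) fell by 0.27. Creb1 rose by 0.45, Hdac4 by 0.41, Crebbp by 0.27 and the calcium channel subunit Cacna1c by 0.21. Of the bHLH-PAS genes, Arntl rose by 0.40 and Clock by 0.39, while Npas1 fell by 0.21 and Arnt by 0.07. The 3 libraries low in cerebellar markers include 2 of day 3. Of 7 cerebellar markers none passed at day 14 against day 3 (3 at an unadjusted p under 0.05), with a median log2 change of 0.66, and their part in the change of Itpr1 was not tested.

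**Figure D5:**
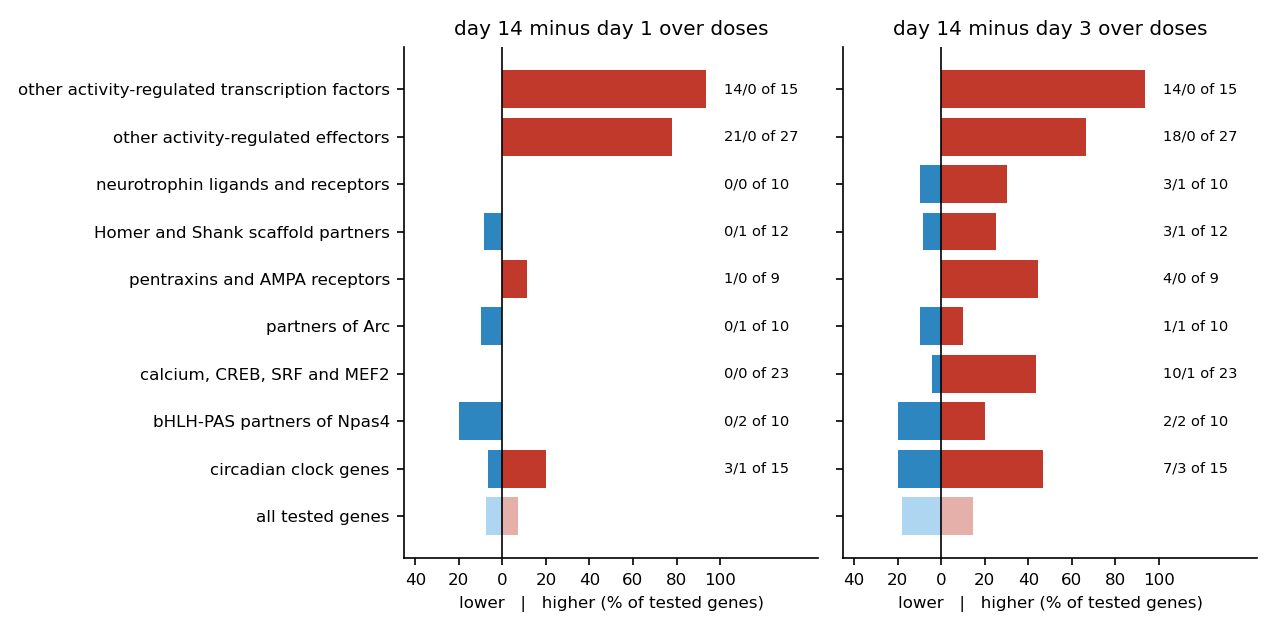
Percent of the tested genes of each of 9 lists called higher (right, red) or lower (left, blue) at day 14 than at day 1 and at day 14 than at day 3 (limma adjusted p under 0.05), with the counts higher and lower of those tested at the right and all tested genes in the bottom pale bar. The activity-regulated factors (14 of 15 higher in both) and effectors (21 and 18 of 27) have longer red bars than all tested genes (7.27% and 14.6% higher).

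Some circadian genes also differed by day, and some by dose within day 7 or 14. As the hour of collection is not given, their part was not tested. Of 15 clock genes, 7 rose and 3 fell at day 14 against day 3 (3 and 1 against day 1). Of all tested genes 14.6% rose and 17.9% fell against day 3 (7.27% and 7.67% against day 1), so the share of clock genes that fell is near that of all genes. Dbp, a clock output factor, fell by 0.76 (SE 0.08, limma adjusted p = 1.38e-08), and Per2 and Per1, clock repressors that activity can also induce, rose by 0.62 and 0.49. Dbp averaged 25.5 ± 2.65, 39.5 ± 2.47 and 20.8 ± 3.38 FPKM at 1/10, 1/5 and 1/2 LD50 of day 14, against 28.2 ± 2.14 FPKM in saline (SD, n = 3 each). At day 7 limma called 5 of 15 clock genes higher and 1 lower at 1/5 than at 1/10 LD50. At an unadjusted p under 0.05 there were 10. At 1/2 against 1/10 LD50 it called 1 higher and 0 lower (4 unadjusted). Of all tested genes, 21.8% and 13.6% were called higher there, and 844 and 604 genes lower. At day 14 it called 1 clock gene lower at 1/2 than at 1/5 LD50 (9 unadjusted), where 0.0408% of all tested genes passed.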

How the data were processed

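Poly(dT)-selected RNA of brain samples was reverse transcribed with SmartScribe, as the labels' protocols state. The aligner named in the submitters' processing notes is HISAT2, without a version, and the build is GRCh38, a human one, although the samples are of mouse. The deposited values are FPKM, 1 column per library, and the program that computed them is not given in the sources used here. Read counts are not used, so depth and counting error are unknown.

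Genes at 1 FPKM or more in at least 3 libraries (14701 of 47561) were tested as log2(FPKM + 1) in a model of 13 group means with limma 3.58.1 in R 4.3.3 (eBayes with a trend), adjusted by Benjamini and Hochberg within each comparison at a threshold of 0.05. Comparisons were each soman group and their mean against saline, pairs of days over doses, pairs of doses within and over days, and F-tests for days and for dose by day. Named genes were the 5, the 5 closest to each by Pearson's r over group means among genes averaging at least 2 FPKM, and up to 4 genes of smallest adjusted p from each list. The members and lists were chosen with earlier results of these data known. Libraries between others were those with more values midway between their fellow replicates, over genes that differ over 2-fold in these, than any library of another group.

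Alternatives were no filter, a pseudocount of 0.1, scaling by median ratios, a model of only the groups compared, a replicate block, and each library left out. Added after the data were seen were leaving out the 3 libraries lowest in cerebellar markers, the 7 between others or the 2 highest in mitochondrial share, and removing trends on transcript length (lowess, span 0.5, GENCODE vM21 lengths for 14104 tested genes, 95.94%). The code was tested on simulated data. Tables and figures used Python 3.11.15, numpy 2.4.6, pandas 2.3.3 and matplotlib 3.10.9. Promoter windows came from a RefSeq table of GRCm38.p6. The result of 1 listed gene is not reported here.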

Additional observations from a re-analysis of the deposited data

Results flagged for a closer look

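The dose effect on Arc differed between days in a test of that difference itself (limma F-test of dose by day, adjusted p = 0.000985). At day 7 Arc averaged 52.9 ± 9.34 FPKM at 1/5 LD50 and 52.6 ± 9.31 FPKM at 1/2 LD50, against 12.0 ± 3.64 FPKM at 1/10 LD50 (SD, n = 3 each). At day 14 the 3 doses averaged 58.1 ± 7.80, 65.4 ± 4.65 and 58.1 ± 3.92 FPKM in order of dose, and no pair of them passed. With each library left out in turn the adjusted p ran from 6.83e-06 to 0.00783. Without the 7 libraries between others the pass was lost (adjusted p = 0.212). It was also lost without the 2 libraries of high mitochondrial share, both of 1/10 LD50 at day 7, which leaves a single library in that group. The part of the mitochondrial share in this difference was not tested.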

How the results depend on the processing

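With the replicate number as a block no result changed its call or direction (Arc at day 14 against day 3 stayed at 2.02). Over 234 same-numbered pairs of libraries, deviations correlated from -0.326 to 0.355 (median 0.00535), with 39 pairs over 0.1. Pairs of different numbers were not compared, so whether numbers pair some libraries cannot be told. Of 12 dose comparisons within a day, Npas4 passed 1 and Bdnf and Nptx2 2 each, all at day 7 against 1/10 LD50. The Npas4 count was 0 with no filter, a pseudocount of 0.1, scaling by median ratios, only the groups compared, without the 2 libraries of high mitochondrial share and without the 7 between others. The Bdnf count was 0 with scaling, only the groups compared and without the 2, and 1 with no filter, without the 7 and without the 3 low in cerebellar markers. The Nptx2 count was 0 with only the groups compared, without the 2 and without the 7, and 1 without the 3. With only the groups compared, Arc passed 1 dose comparison within a day, 1/5 against 1/10 LD50 at day 1 (1.04, adjusted p = 0.013), and neither of those at day 7. It passed 1 over days without the 2 and without the 7, and its dose-by-day adjusted p was 0.05 and 0.212. Scaling shifted the median of all genes by -0.10 for 1/5 against 1/10 LD50 at day 7. Passes against saline were 0 for Bdnf with only the groups compared and without the 7, and 3 with the length trend removed. They were 1 for Nptx2 with only the groups compared, without the 2 and with the length trend removed. Without the 7 they were 3 for Npas4 and 1 for Homer1, and Nptx2 passed 1 pair of days. Npas4 over all soman was -0.58 with no filter, -0.52 without the 7 and -0.52 with the length trend removed, and did not pass. Near 0, signs turned in differences that did not pass. Bdnf over all soman was 0.0105 with scaling, 0.0067 without the 2, 0.10 without the 7 and 0.0655 with the length trend removed. Homer1 at 1/2 against 1/10 LD50 of day 7 was -0.0816, -0.20, -0.16, -0.0094 and -0.048 (scaling, without the 2, the 7 and the 3, length trend). Nptx2 without the 2 was 0.13 at 1/10 LD50 of day 7 against saline and -0.0524 at day 14 less day 7. Npas4 at day 14 less day 7 was -0.0266 without the 7 and -0.0162 with the length trend removed, Bdnf 0.0266 at 1/2 LD50 of day 1 without the 7 and 0.0421 at day 3 less day 1 with the length trend removed.

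With each library left out in turn, Arc over all soman ran from -0.61 to -0.51. Npas4 ran from 3 to 5 passes against saline, 0 to 1 doses within a day, 0 to 1 over days, -0.63 to -0.54 over all soman, -0.029 to 0.13 at day 14 less day 7 and -0.21 to 0.0154 at 1/2 LD50 of day 7. Bdnf ran from 0 to 2 passes against saline, 1 to 2 doses within a day, -0.0519 to 0.0937 over all soman and -0.14 to 0.0051 at 1/2 LD50 of day 1. Homer1 ran from 2 to 3 passes against saline, 0 to 1 doses within a day, -0.16 to 0.11 at 1/2 against 1/10 LD50 of day 7, -0.0022 to 0.11 at day 7 less day 1 and -0.0576 to 0.20 at 1/5 LD50 of day 7. Nptx2 ran from 0 to 1 passes against saline, 2 to 3 pairs of days, 1 to 2 doses within a day and a dose-by-day adjusted p of 0.0093 to 0.283. Its differences ran from -0.15 to 0.0066 and -0.30 to 0.13 at 1/2 and 1/5 LD50 of day 1, -0.0126 to 0.23 at 1/10 LD50 of day 3, and -0.0314 to 0.11 at day 3 less day 1. The cause of these changes was not tested. The rises of all 5 genes at day 14 against day 3, and the day-3 falls of Arc and Npas4 against saline, passed under every alternative.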
